A study of Mus musculus with 4 samples.

Results

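The regions described here are weak ATAC-seq peaks that were listed only in wild-type hair follicle stem cells (HFSC) and that lay crowded together along the autosomes. ATAC-seq uses the transposase Tn5 to cut and tag open DNA, so that a peak marks a stretch of accessible chromatin. The samples were 2 labelled Irx5KO and 2 labelled WT, all HFSC sorted as Ly-6A/E negative, CD34 positive and positive for a marker written CD45f. Irx5 belongs to the Iroquois homeobox genes, whose products bind DNA, and the study's title concerns repair of damaged DNA and the activation of these stem cells. The labels give no allele, strain, age, sex or treatment and do not say whether animals were pooled. Both replicates of a genotype share 1 deposited peak list, which gives no spread between them, and no test between genotypes was run. Intervals in parentheses are 95% Wilson intervals, which cover counting error only, and neighbouring bins are not independent.

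Chromosomes 1 to 19 (mm10) were split into bins of 100 kb, of which 24021 held at least 1 peak of either list. A peak was counted as Irx5KO-only if it overlapped no WT peak by 1 bp or more, and as WT-only in the reverse case, which held for 21.8% of the Irx5KO list and 26.6% of the WT list. Of all autosomal WT peaks 24.6% were WT-only with a score under the list's median. Bins with at least 8 more WT-only than Irx5KO-only peaks are called WT-dense here. There were 1168 of them, or 4.86% of all bins, and 278 bins, or 1.16%, had an excess of at least 8 in the other direction (Irx5KO-dense). The WT-dense bins held 15857 WT-only peaks, and the 14886 of these under the WT list's median score of 197 are the regions described, chosen by these measured peak positions and scores, out of 499794 peaks in the WT list and 486180 in the Irx5KO list. The score is the authors' own value per peak and only ranks peaks within a list.

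Mouse chromosomes carry many gene families that arose by repeated duplication and still lie side by side as tandem copies. The largest are the olfactory and vomeronasal receptors, which detect odours and pheromones in sensory neurons and have no known role in the hair follicle bulge. Antigen receptor V segments form similar arrays, which lymphocytes rearrange to build antibodies and T cell receptors. Long stretches between such clusters hold few genes or none, and these gene-poor stretches are usually rich in A and T.

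Promoter sequences are shown first. A promoter window here is the 250 bases before and 50 bases after an annotated transcription start, taken from RefSeq (GRCm38.p6, the same assembly as mm10). Of 731 coding genes with their midpoint in a WT-dense bin, 601 had a promoter window. The regions touched 65 windows of 58 genes and covered 4 windows whole, which are printed below, the ones of listed tandem families first. Capitals mark matches to any of 6 motifs searched on both strands: the TATA box with the letters TATAAA, the GC box with GGGCGG, the box named by its letters CCAAT, the AP-1 motif with TGANTCA, the E-box with CACGTG and the palindrome ACANNTGT, described for an Iroquois protein in Drosophila. With CG in its middle that palindrome also contains the E-box.
Olfr1082 (chr2:86598760-86599059, minus strand): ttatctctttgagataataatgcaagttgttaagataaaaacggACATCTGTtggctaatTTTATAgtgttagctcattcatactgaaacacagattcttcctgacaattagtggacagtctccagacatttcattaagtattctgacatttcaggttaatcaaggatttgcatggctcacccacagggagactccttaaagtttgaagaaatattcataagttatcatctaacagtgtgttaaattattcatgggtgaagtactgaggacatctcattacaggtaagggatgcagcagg
Prl3d2 (chr13:27121445-27121744, plus strand): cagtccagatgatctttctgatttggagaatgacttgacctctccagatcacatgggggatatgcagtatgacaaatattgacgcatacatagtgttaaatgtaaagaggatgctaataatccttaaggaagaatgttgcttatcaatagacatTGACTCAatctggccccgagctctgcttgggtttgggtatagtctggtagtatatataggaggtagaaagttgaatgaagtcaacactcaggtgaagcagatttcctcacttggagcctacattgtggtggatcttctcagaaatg
Serpinb9c (chr13:33159705-33160004, minus strand): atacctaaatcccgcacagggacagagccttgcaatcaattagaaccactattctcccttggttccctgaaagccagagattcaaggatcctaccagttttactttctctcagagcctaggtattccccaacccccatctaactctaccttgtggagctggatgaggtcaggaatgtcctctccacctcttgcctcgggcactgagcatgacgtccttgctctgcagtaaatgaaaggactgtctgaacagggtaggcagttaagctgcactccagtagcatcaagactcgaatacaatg
Il1f5 (chr2:24277021-24277320, plus strand): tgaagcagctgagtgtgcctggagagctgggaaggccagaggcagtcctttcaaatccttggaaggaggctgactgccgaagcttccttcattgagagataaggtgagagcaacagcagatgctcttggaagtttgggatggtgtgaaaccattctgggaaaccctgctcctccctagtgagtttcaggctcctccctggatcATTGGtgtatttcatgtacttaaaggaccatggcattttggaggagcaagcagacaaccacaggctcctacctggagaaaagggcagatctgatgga

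The peak over the Olfr1082 promoter spanned 580 bp (chr2:86598651-86599230) with a score of 96, and Olfr1082 encodes an olfactory receptor. The window held the Iroquois palindrome as acatctgt, from 206 bases before the start, and a TATA box match on the opposite strand. Prl3d2 encodes a placental hormone of the prolactin family, and its peak was 360 bp wide (chr13:27121441-27121800) with a score of 96. Its window held 1 AP-1 match, tgactca, from 96 bases before the start. Serpinb9c encodes a serine protease inhibitor, and its window held none of the 6 motifs under a peak of 420 bp with a score of 68. The peak over Il1f5, an interleukin-1 family cytokine gene, was 590 bp wide with a score of 133. All 4 genes also had an Irx5KO peak within 1000 bp of one of their ends. With a peak also counted as shared when one of the other list lay within 500 bp, Olfr1082, Prl3d2 and Serpinb9c had 0 regions.

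Promoters in WT-dense bins were poorer in G and C than promoters in general. Median G+C content was 43.0% over the 65 windows that the regions touched and 45.3% over all 690 windows in WT-dense bins, against 57.0% over all 20085 autosomal coding windows. The windows of genes in Irx5KO-dense bins stood at 61.0%. The ratio of observed to expected CpG had a median of 0.205 in WT-dense bins, 0.637 in Irx5KO-dense bins and 0.586 over all windows. The GC box was present in 17.1% of windows in WT-dense bins and in 47.0% of all windows, the TATA box in 23.04% and 12.7%, and the Iroquois palindrome in 12.03% and 6.02%. Base composition and gene family differ between these sets as well, and their part in the motif shares was not tested. Chemosensory receptor genes had the palindrome in 22.4% of windows inside WT-dense bins and in 17.6% of windows outside them, and the TATA box in 34.8% and 40.6%, at a median G+C of 35.2% and 36%. The other coding genes in WT-dense bins had the palindrome in 7.5% of 480 windows, near the 6.02% of all windows. They had the TATA box in 17.9%, at a median G+C of 49.5%. A match describes the letters of the window and is not a bound site.

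In the WT-dense bins the WT list held more peaks of both kinds than elsewhere. A WT-dense bin held on average 3.46 ± 2.62 Irx5KO-only and 13.6 ± 4.498 WT-only peaks (SD over bins, n = 1168), against 4.18 ± 2.64 and 4.65 ± 2.97 in the other 22853 bins. These numbers, like the shares of bins and peaks above, follow from the choice of the bins and show nothing further. Shared peaks, which the choice did not count, averaged 22.6 in the Irx5KO list and 21.3 in the WT list per WT-dense bin, against 13.8 and 13.4 in the other bins. In Irx5KO-dense bins the shared peaks averaged 11.7 and 12.1. WT-dense bins were thus crowded with shared peaks as well, whereas Irx5KO-dense bins were not. The median share of a WT-dense bin covered by peaks was 18.95% in the Irx5KO list and 22.1% in the WT list, against 11.9% and 12.01% over all bins.

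**Figure D1:**
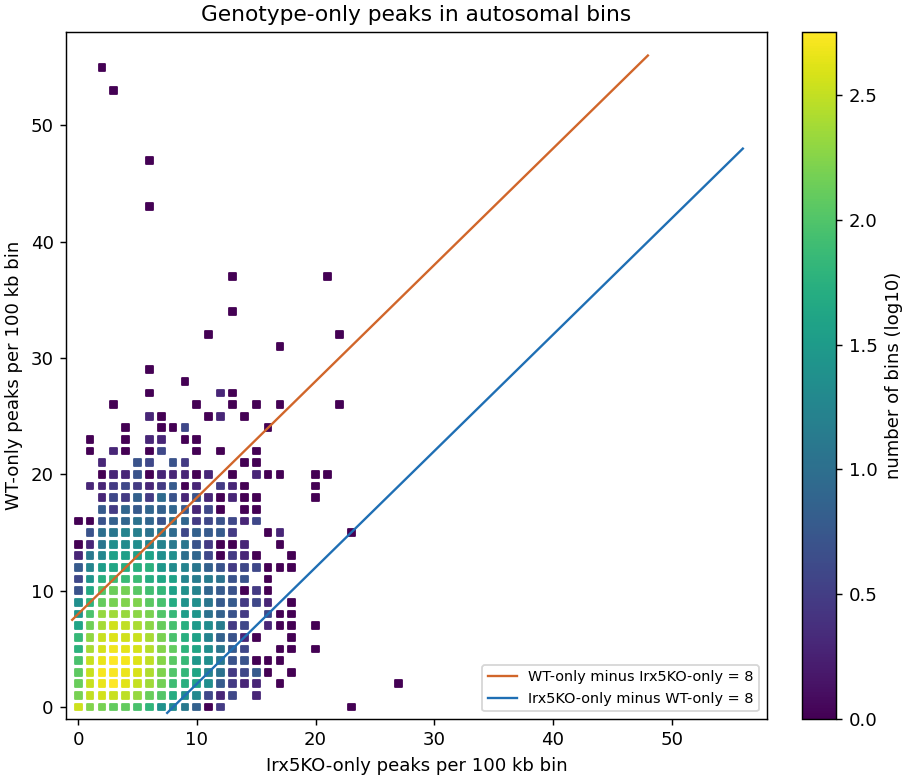
Each square is a pair of counts, with Irx5KO-only peaks per 100 kb bin on the x axis, WT-only peaks on the y axis and colour for the number of autosomal bins on a log10 scale. The 1168 WT-dense bins lie on or above the orange line and reach an excess of 53, and the 278 Irx5KO-dense bins lie on or below the blue line and reach an excess of 25.

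At the limits of the choice, 403 bins had an excess of exactly 8 and 609 bins just missed it with 7. Within WT-dense bins 18 regions had the highest accepted score of 196, and 36 WT-only peaks at 197 were left out. Every WT-dense bin held at least 4 of the regions, with a median of 12 and a maximum of 51. The regions were narrow, with a median width of 260 bp against 250 bp for the other 96538 autosomal WT-only peaks under the median score and 530 bp for shared WT peaks in the same bins. Their median score of 88 was equal to that of the other low WT-only peaks. Many had an Irx5KO peak close by: the median gap to the nearest one was 1020 bp, against 1430 bp for the other low WT-only peaks, and 32.8% of the regions had one within 500 bp, against 27.1%.

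The number of WT-dense bins changed with how peaks were counted. When only genotype-only peaks at or above the 25th percentile of score in their own list were counted, 56 bins had an excess of 8 or more. That threshold, a score of 119 in the Irx5KO list and 110 in the WT list, lay above the median of low WT-only peaks inside and outside WT-dense bins alike, so it lowers an absolute excess in any bin. With the WT list shortened to the length of the Irx5KO list, 795 bins did, and with WT-only numbers scaled to the Irx5KO-only total, 325 did. The labels name 1 sequencing depth planned for every sample, and the reads obtained per library were not used here. A difference in depth or library preparation and an effect of genotype cannot be told apart in any of these numbers.

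The neighbourhoods were unevenly spread over chromosomes. WT-dense bins made up 8.38% of the bins of chromosome 17, 7.30% of chromosome 7 and 6.86% of chromosome 19, against 2.27% of chromosome 11 and 2.55% of chromosome 9. Chromosome 11 had 1.85% Irx5KO-dense bins and chromosome 3 had 0.382%. Adjacent WT-dense bins joined into 164 runs that together held 385 bins, or 33.0% of them, and the other 783 stood alone. The longest run had 8 bins, and 12 runs had 4 or more. The fewer Irx5KO-dense bins had 7.91% in runs, and since runs form more easily among more bins, the shares are not compared.

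WT-dense bins were most frequent within tandem gene clusters and next in stretches without coding genes. Bins with V segments were most often WT-dense, 31 of 87, or 35.6% (26.4 to 46.1). Among bins with a chemosensory receptor gene 83 of 556 were, or 14.9% (12.2 to 18.1), and among bins with other tandem genes 99 of 1230, or 8.05% (6.66 to 9.70). Bins whose coding genes had no tandem neighbour were WT-dense in 209 of 8870 cases, or 2.36% (2.06 to 2.69), under the 4.86% of all bins. That class reached an excess of 53, since it includes the Duxbl block described next, whose interleaved copies do not count as tandem neighbours. Bins with neither a coding gene nor a pseudogene stood at 6.06% (5.49 to 6.68) and, with 378 bins and 4470 regions, formed the largest class. Bins that held only part of a long coding gene stood near the background, at 4.55% (4.004 to 5.17).

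**Figure D2:**
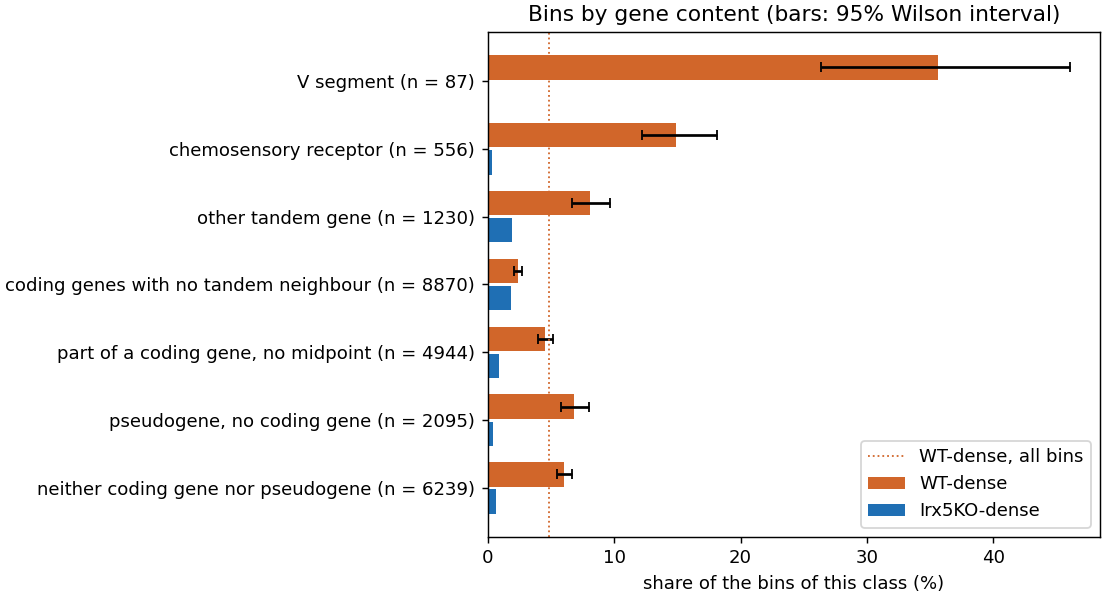
The bars give the share of bins in each gene-content class that were WT-dense (orange, with 95% Wilson intervals) or Irx5KO-dense (blue), and the dotted line is the 4.86% of all bins that were WT-dense. V-segment bins reach 35.6% WT-dense and 0% Irx5KO-dense, whereas bins of coding genes with no tandem neighbour reach 2.36% and 1.84%. The latter class includes the Duxbl block, whose interleaved copies do not count as tandem neighbours.

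The block around Duxbl1, Duxbl2 and Duxbl3 on chromosome 14 was the densest neighbourhood. These genes encode double homeobox proteins, and they recur in 3 copies of a block that also carries Cphx, another homeobox gene, and Tmem254, a membrane protein gene. The 4 adjacent bins there had the 4 largest excesses of all bins. In the bin at chr14:25900001-26000000, with Tmem254a, Cphx1 and Duxbl1, 2 Irx5KO-only and 55 WT-only peaks lay beside 53 and 47 shared ones. The bin at chr14:26200001-26300000, with Tmem254b, Cphx3 and Duxbl3, held 3 and 53, that at chr14:26100001-26200000 held 6 and 47, and that at chr14:26000001-26100000 held 6 and 43. All 4 bins thus stood far above the next in rank, with an excess of 24.

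Shared peaks numbered 47 to 61 per bin in the Irx5KO list and 45 to 52 in the WT list, so the WT list did not hold more of them. The Irx5KO list covered 27.4%, 29.7%, 32.1% and 25.75% of the 4 bins in the order of position, and the WT list 56.3%, 59.7%, 62.2% and 52.9%. Within 1000 bp of Duxbl1 lay 5 Irx5KO and 13 WT peaks, and the counts were 5 and 13 for Duxbl2 and 6 and 13 for Duxbl3. None of these was Irx5KO-only, and 9, 8 and 8 of the WT peaks were among the low WT-only regions. The counts were thus alike at the copies. The bins were chosen for this excess, and how reads were placed among the copies is not given, so these are not separate observations. The excess of these 4 bins also outlasted the score threshold, with 23, 13, 14 and 21 more WT-only peaks when the lowest 25% of each list was left out.

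The Cphx copies of the block had nearly the same promoter. The windows of Cphx1 and Cphx2 were 97.3% identical by edit distance, and those of Cphx2 and Cphx3 were 100% identical. The 8 edits between Cphx1 and Cphx2 came from windows set 4 bases apart, and no base differed where the windows overlap. Other gene pairs of the block varied, with the Plac9a and Plac9b windows 49.0% identical and the closest pairs of Tmem254 windows 100% identical for Tmem254a and Tmem254c and 89.3% for Tmem254b with either. Capitals mark the bases of each that have no partner in the alignment, 4 per window, and none of them is a substitution.
Cphx1 (chr14:25942294-25942593, plus strand): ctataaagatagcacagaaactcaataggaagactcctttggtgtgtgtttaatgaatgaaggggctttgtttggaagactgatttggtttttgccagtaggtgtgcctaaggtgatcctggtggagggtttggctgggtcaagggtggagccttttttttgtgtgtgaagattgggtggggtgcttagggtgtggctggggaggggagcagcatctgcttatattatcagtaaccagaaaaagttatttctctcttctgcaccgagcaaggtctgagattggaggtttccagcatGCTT
Cphx2 (chr14:26082043-26082342, plus strand): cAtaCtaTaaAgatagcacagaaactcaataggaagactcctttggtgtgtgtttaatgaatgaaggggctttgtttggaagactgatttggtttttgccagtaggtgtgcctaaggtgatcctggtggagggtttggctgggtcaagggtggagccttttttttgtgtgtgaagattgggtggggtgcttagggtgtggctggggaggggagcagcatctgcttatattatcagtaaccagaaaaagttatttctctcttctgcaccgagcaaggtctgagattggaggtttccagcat
Within 10 kb of these windows lay 9 of the regions at Cphx1 and 8 at Cphx2, and none touched the windows themselves. How multiply mapped reads were handled is not given in the sources used here. Its part in the result was not tested.

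The longest run, 8 adjacent bins, lay in the V segments of the T cell receptor alpha chain (chr14:52700001-53500000). It held 74 V segments and no coding gene, with 24 Irx5KO-only and 123 WT-only peaks, and all 123 were under the median score. The excess per bin ranged from 9 to 15, so all 8 bins contributed. Over the whole Trav array 82 of 114 segments lay in WT-dense bins, or 71.9% (63.1 to 79.4), with more WT-only peaks in 14 of its 15 bins. Peaks covered 60.5% of the run in the Irx5KO list and 76.9% in the WT list, on average over bins.

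Immunoglobulin arrays were also included, but not every V array was. Of the heavy-chain Ighv segments on chromosome 12, 45 of 120 lay in WT-dense bins, or 37.5% (29.4 to 46.4), and of the kappa-chain Igkv segments on chromosome 6, 39 of 102, or 38.2% (29.4 to 47.9). The T cell receptor beta and gamma arrays, Trbv with 22 and Trgv with 7 segments, had none there. In all, 168 of 374 autosomal V segments, or 44.9% (39.96 to 49.99), lay in WT-dense bins and 0 in Irx5KO-dense bins, beside 3.56% and 2.22% of coding genes, and pseudogenes of V segments did so in 52 of 153 cases. With a peak also counted as shared when one of the other list lay within 500 bp, the share was 6.42%, beside 1.66% of coding genes. Among immune markers, Ptprc and Cd74 carried a peak at a gene end in the WT list alone and Cd3e in neither list. Their part in the result was not tested.

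**Figure D3:**
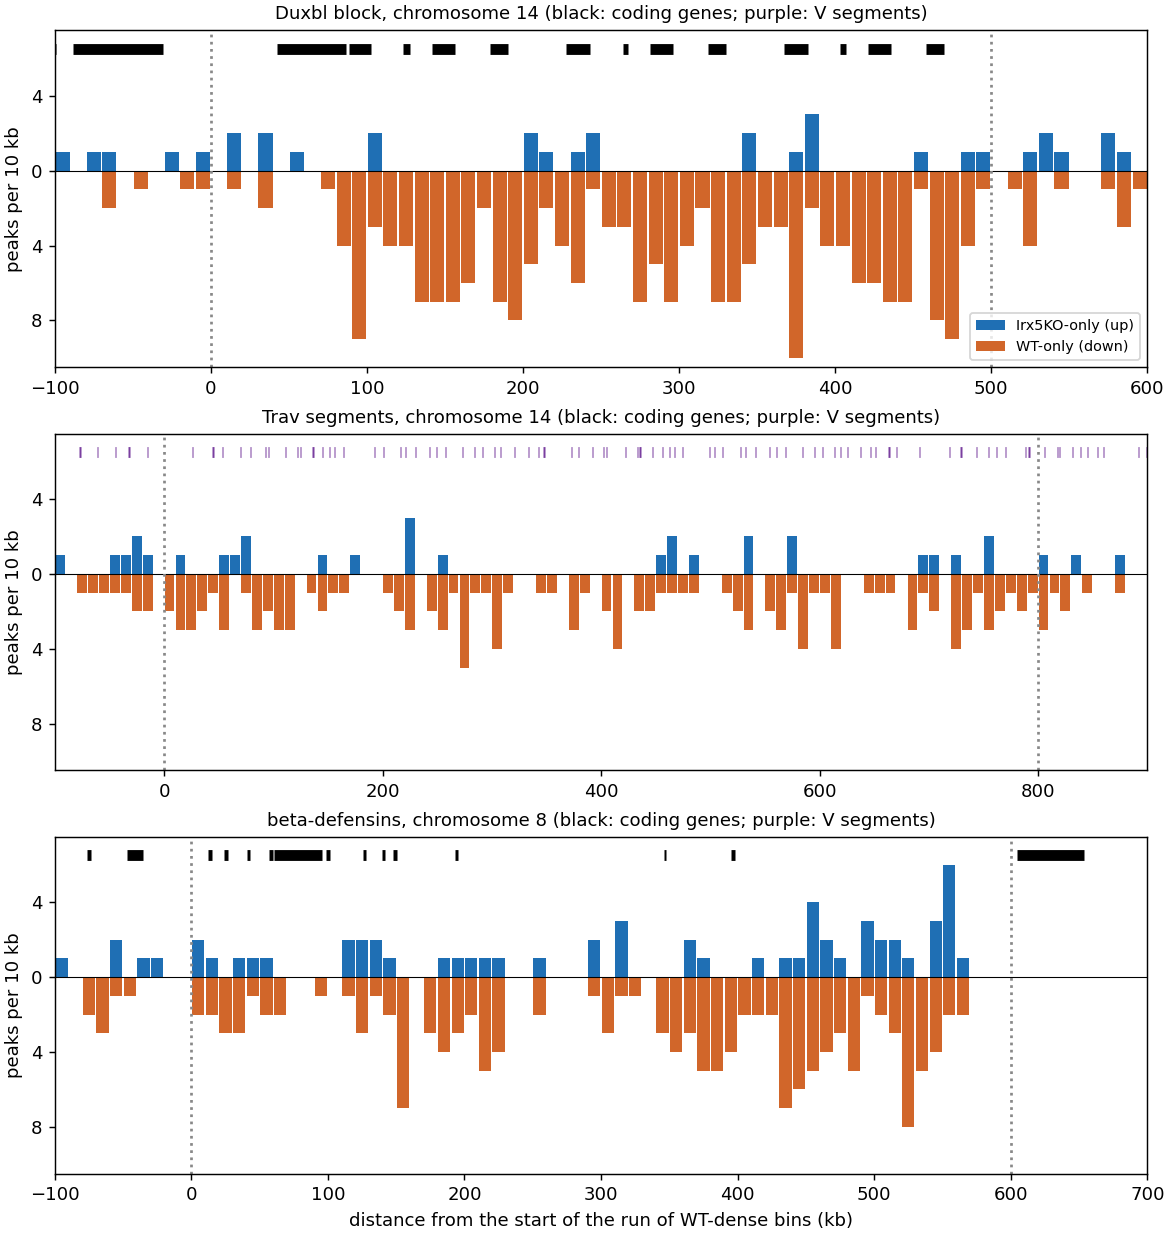
Bars count Irx5KO-only peaks (blue, upward) and WT-only peaks (orange, downward) per 10 kb along 3 runs of WT-dense bins, with the distance from the start of the run in kb on the x axis and dotted lines at both ends of each run. WT-only peaks reach 10 per 10 kb in the Duxbl block and are spread along the whole V-segment run, whereas in the beta-defensin run Irx5KO-only peaks reach 6.

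The beta-defensin cluster on chromosome 8 formed a run of 6 bins (chr8:19100001-19700000) with 55 Irx5KO-only and 146 WT-only peaks. Beta-defensins are secreted antimicrobial peptides of epithelia. Genotype-only peaks of both kinds were thus frequent there, unlike in the Duxbl block. Its densest bin, chr8:19500001-19600000, held 13 Irx5KO-only and 37 WT-only peaks and no coding gene but 3 pseudogenes, and that excess shrank to 1 without the lowest 25% of scores. The next bin by excess, with Defb8 and Defb7, held 6 and 29. Of 42 autosomal beta-defensin genes 14 lay in WT-dense bins, or 33.3% (21.0 to 48.4), all on that chromosome, beside 3.56% of all coding genes. Alpha-defensin genes gave 0 of 29, with an upper limit of 11.7%, so no difference from all coding genes was detectable for them.

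The other bins among the 10 with the largest excess lay on chromosomes 5, 7, 14 and 8. The bin chr5:104700001-104800000 held 3 Irx5KO-only and 26 WT-only peaks, with 4 pseudogenes and no coding gene, in a run that also held Zfp951 and the transporter gene Abcg3. The bin with Cyp2a22 (chr7:26900001-27000000), a cytochrome P450 gene, held 1 and 23. A further pair of bins had neither coding genes nor pseudogenes. In chr14:81400001-81500000 lay 13 Irx5KO-only and 34 WT-only peaks, and in chr8:99600001-99700000 lay 11 and 32. The largest excesses thus fell at duplicated genes and in gene-free stretches alike.

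Chemosensory receptors were the main group of coding genes in these neighbourhoods. Of the 731 coding genes with their midpoint in a WT-dense bin, 235, or 32.1% (28.9 to 35.6), belonged to 6 families of chemosensory receptors, against 1.53% in Irx5KO-dense bins and 6.44% in all bins outside the WT-dense ones. Counted the other way, 15.6% (13.8 to 17.5) of the 1511 autosomal receptor genes lay in WT-dense bins. The olfactory receptors gave 159 of 1103 genes, in 45 bins on 11 chromosomes. Type 1 and type 2 vomeronasal receptors, which bind pheromones, gave 41 of 229 and 24 of 122, and bitter taste receptors gave 8 of 35. Formyl peptide receptors, some of which act in vomeronasal neurons, gave 3 of 7, and trace amine receptors 0 of 15.

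A gene counted in a WT-dense bin need not hold one of the regions. Of the 235 receptor genes 108 had at least 1 region inside or within 1000 bp and 127 had none, with 62 and 97 among the olfactory and 2 and 6 among the bitter taste receptors. The examples given are those with the most regions. Olfr1061 (chr2:86413109-86414050) had 0 Irx5KO and 4 WT peaks within 1000 bp, all 4 of them among the regions, and Olfr524 on chromosome 7 had 0 and 3. Vmn1r19 on chromosome 6 had 2 Irx5KO and 4 WT peaks, of which 3 were among the regions. Vmn2r92 and Vmn2r91 are neighbours on chromosome 17 with promoters 98.0% identical. Vmn2r92 had 16 Irx5KO and 26 WT peaks, with 0 Irx5KO-only and 13 regions, and Vmn2r91 had 28 and 34, with 2 and 12. The bitter taste receptor genes Tas2r104 and Tas2r105 and the formyl peptide receptor genes Fpr-rs7 and Fpr-rs6 each had 0 Irx5KO peaks and 1 WT peak. With sharing within 500 bp these 4 genes had 0 regions, and Olfr1061 still had 4.

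Families of detoxifying enzymes and transporters ranged from none to about 26.3% of their genes in WT-dense bins, beside 3.56% of all coding genes. Cytochrome P450 enzymes oxidise drugs and steroids, and 18 of 98 genes lay there, or 18.4% (11.9 to 27.2). Among them Cyp3a25 on chromosome 5 had 20 Irx5KO and 32 WT peaks, with 17 of the regions, and its neighbour Cyp3a59, with a promoter 96.3% identical, had 25 and 32, with 15. Cyp2c39 on chromosome 19 had 33 of the regions over 222 kb, a span that contains Cyp2c38 in the annotation, so that some peaks count for both. UDP-glucuronosyltransferases, which conjugate steroids and drugs, gave 5 of 19 genes, with 6 regions each at Ugt2b37 and at Ugt2a1, which overlaps Ugt2a2. Sulfotransferases gave 5 of 21, all of the Sult2a group, with 8 regions at Sult2a3 and 6 at Sult2a5. Slc22 organic ion transporters gave 3 of 25, or 12% (4.17 to 29.96), with 12 regions at Slc22a30 and 11 at Slc22a29. Carboxylesterases, with 0 of 19, glutathione S-transferases, with 0 of 21, and aldo-keto reductases of group 1c, with 0 of 9, had none. The upper limits of these shares, 16.8%, 15.5% and 29.9%, all lie above 3.56%. With sharing within 500 bp, the regions at Sult2a3, Sult2a5, Ugt2a1 and Slc22a30 numbered 0.

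Families of immune and of secreted proteins ranged from none to 46.7% of their genes in WT-dense bins, beside the 3.56% of all coding genes. Interferon alpha genes gave 0 of 18, guanylate-binding protein genes 0 of 13, paired Ig-like and Lilr receptors 0 of 10 and Siglec and CD300 genes 1 of 18. The upper limits of these shares, 17.6%, 22.8%, 27.8% and 25.8%, all lie above 3.56%, so no difference from other genes was detectable. Killer cell lectin-like receptors, which natural killer cells use to sense MHC class I, gave 9 of 27 genes, or 33.3% (18.6 to 52.2), and Klra1 on chromosome 6 had 18 Irx5KO and 23 WT peaks with 5 of the regions. The C-type lectin gene Clec2h, near Klrb1 on the same chromosome, had 6 and 10 peaks with 7 regions. Exocrine gland peptides, which include pheromones shed in tears, gave 7 of 15, with 2 regions each at Esp18 and Esp38. Carcinoembryonic antigen genes gave 6 of 28, with Ceacam3 at 2 Irx5KO and 6 WT peaks. Nlrp genes, which include innate sensors and oocyte genes such as Nlrp5, gave 4 of 18, with 19 regions over the 56.0 kb of Nlrp5. The prolactin family gave 4 of 29, or 13.8% (5.50 to 30.6), and its Prl3d1, a placental lactogen gene, had 5 Irx5KO and 8 WT peaks with 6 regions. Mas-related receptor genes of sensory neurons gave 5 of 20, including Mrgpra2a and Mrgpra2b, whose promoters were 100% identical. Mrgpra2a had 21 Irx5KO and 16 WT peaks and Mrgpra2b 21 and 19, with 1 Irx5KO-only peak and 1 region each, so neither had more peaks in WT. With sharing within 500 bp, the regions at Klra1, Ceacam3, Nlrp5, Prl3d1, Esp18, Mrgpra2a and Mrgpra2b numbered 0.

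Further families included some with intervals that held the 3.56% of all coding genes. Zinc finger genes named Zfp gave 20 of 388, or 5.15% (3.36 to 7.83), with 12 regions each at Zfp951 and Zfp781, while Zfp536, with 13 regions, had its midpoint outside WT-dense bins. MHC genes gave 4 of 35, or 11.4% (4.54 to 25.95), with 3 regions each at H2-M10.1 and H2-M3, and 6 of the 35 lay in Irx5KO-dense bins. The Pramel, secretoglobin, Serpin and C-type lectin families and the late cornified envelope group with Sprr each gave 3 genes, of 49, 40, 51, 33 and 35. Pramel22 had 4 regions, Scgb2b2 had 2, Serpinb9d had 3 and Sprr2a3 had 1. Groups of the same name stem with every member in WT-dense bins, singled out after their values were seen, were the mast cell protease genes Mcpt and the Tcl1b genes, with 5 of 5 each, and Cphx, Duxbl, Glipr1l, Prl3d, Sprr2a and Ugt2a, with 3 of 3 each.

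**Figure D4:**
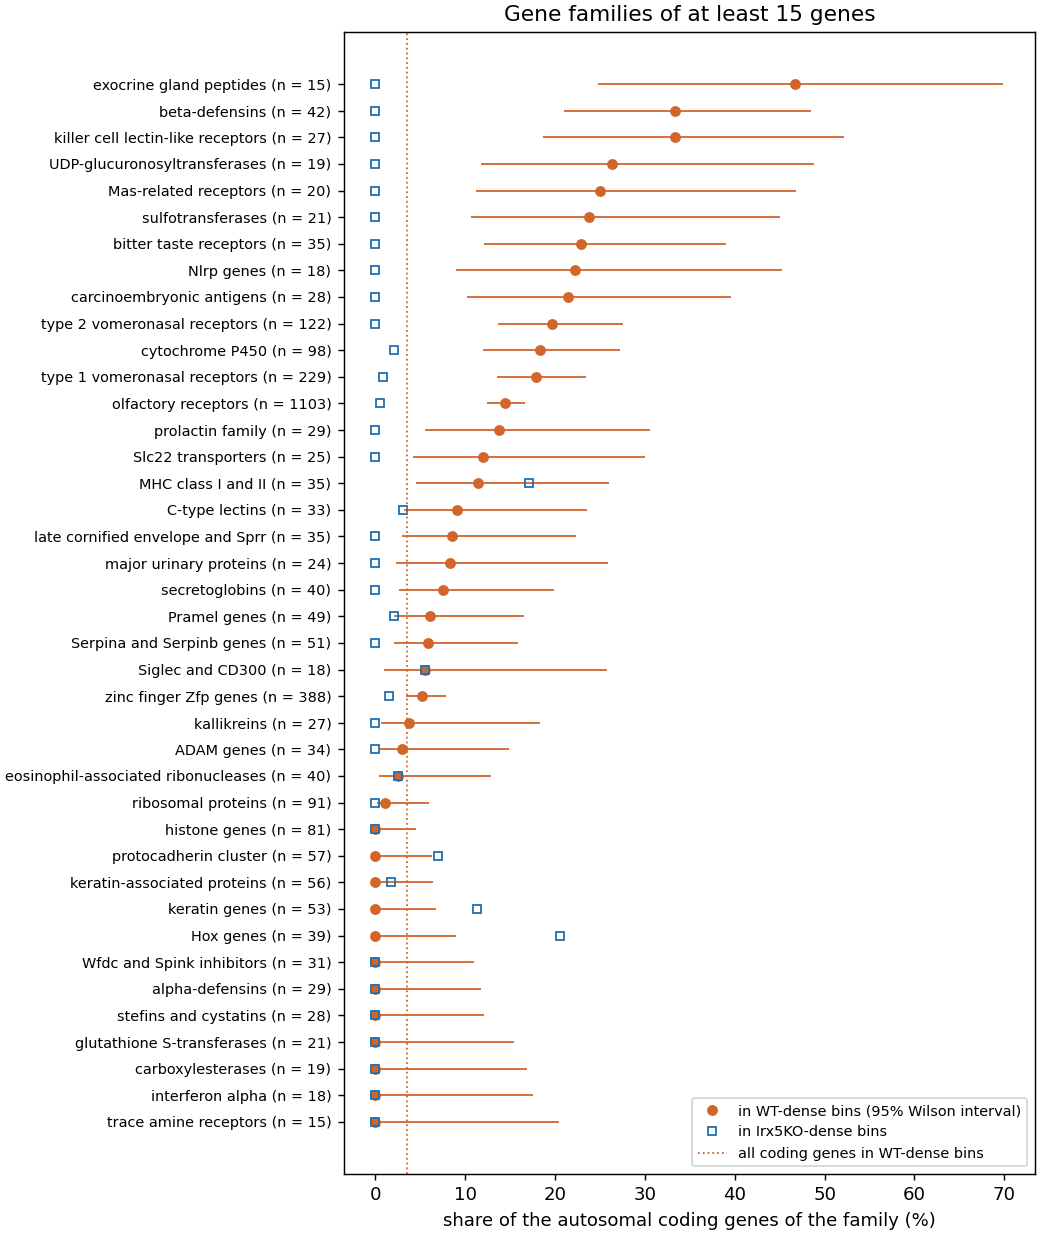
For each gene family of at least 15 autosomal coding genes, the x axis gives the share of its genes in WT-dense bins (orange circles, lines for 95% Wilson intervals) and in Irx5KO-dense bins (blue squares). The dotted line marks 3.56% for all coding genes in WT-dense bins, with beta-defensins at 33.3% and cytochrome P450 at 18.4% to its right, and keratin and Hox genes at 0%.

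Several other clustered families had no gene there, which their sizes allow at the share of all coding genes. Of 39 Hox genes, 53 keratin genes, 56 keratin-associated protein genes, 57 clustered protocadherin genes and 81 histone genes, 0 lay in WT-dense bins, while 8 Hox and 6 keratin genes lay in Irx5KO-dense bins. The upper limits of these shares were 8.97% for Hox, 6.76% for keratin, 6.42% for keratin-associated protein, 6.31% for protocadherin and 4.53% for histone genes. All lie above 3.56%, so no difference from all coding genes was detectable. These genes lie in clusters too, and keratins and keratin-associated proteins build the hair. Of coding genes with a tandem neighbour outside the chemosensory families, 187 of 2272, or 8.23% (7.17 to 9.43), lay in WT-dense bins. The upper limits for keratin, keratin-associated protein, protocadherin and histone genes lie under 8.23%, and the limit for Hox genes lies above it. Of 91 ribosomal protein genes 1 lay in a WT-dense bin. Of the 6 Iroquois genes none did, and Irx5 itself (chr8:92357796-92361456) lay in an Irx5KO-dense bin, with 5 Irx5KO and 2 WT peaks within 1000 bp. All 10 HFSC markers examined, among them Krt15, Cd34, Sox9 and Lhx2, had a gene-end peak in both lists, and none lay in a WT-dense bin, with Tcf7l1 in an Irx5KO-dense one. Of 15 markers of other skin cell types, 2 carried a peak at a gene end in the Irx5KO list alone, 6 in the WT list alone, 5 in both and 2 in neither, and none lay in a WT-dense bin. Over all coding genes 6.28%, 4.04%, 76.1% and 13.6% fell in these 4 classes. All 3 melanocyte markers, Mlana, Tyr and Kit, were among the 6, and their part in the results was not tested.

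Over all bins, tandem arrangement and gene scarcity went together with the peak excess. A coding gene was counted as tandem if the next coding gene on either side had the same name stem and lay within 200 kb. Of the coding genes in WT-dense bins 57.2% (53.6 to 60.7) were tandem, against 12.9% (10.1 to 16.3) in Irx5KO-dense bins and 16.7% in the bins outside the WT-dense ones. The interleaved Tmem254, Cphx and Duxbl copies do not count as tandem under this definition. Pairs of tandem neighbours had promoters at least 90% identical in 8.59% (5.43 to 13.3) of 198 pairs within WT-dense bins and in 4.11% (3.30 to 5.11) of 1873 other pairs.

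Coding genes were on average fewer in WT-dense bins than in other bins, though not among the bins richest in shared peaks. WT-dense bins held 0.626 coding gene midpoints on average (0.581 to 0.673, exact Poisson interval), against 1.64 (1.497 to 1.80) in Irx5KO-dense bins and 0.867 in all bins outside the WT-dense ones. Without the chemosensory receptors the means were 0.425, 1.62 and 0.811. No coding gene midpoint was present in 66.5% (63.8 to 69.2) of WT-dense bins, in 32.0% (26.8 to 37.7) of Irx5KO-dense bins and in 55.6% of all bins. Pseudogenes were more frequent than elsewhere, with 613 of 8798, or 6.97% (6.45 to 7.52), in WT-dense bins, beside 2.81% of long noncoding RNA genes and 1.85% of miRNA genes.

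**Figure D5:**
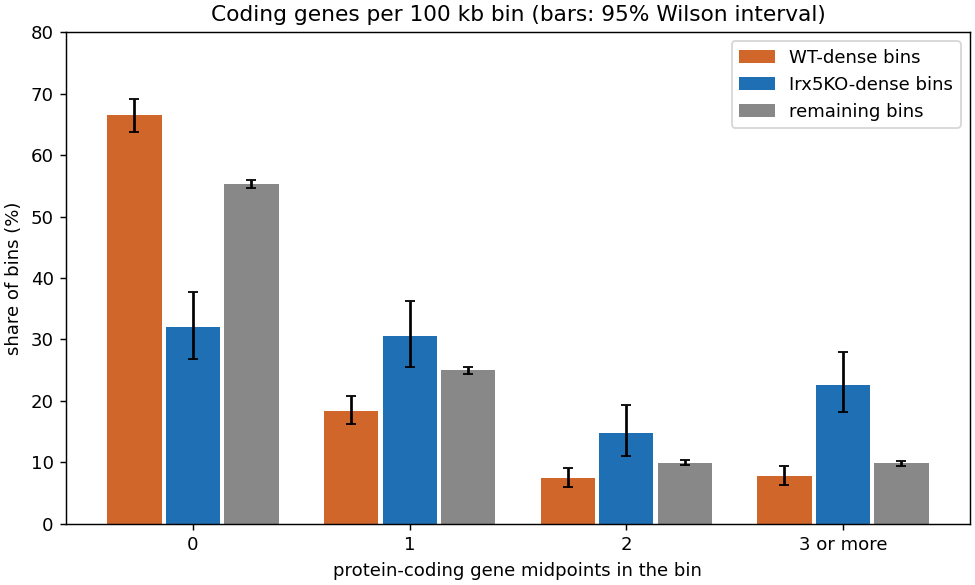
Bars show the share of bins with 0, 1, 2 and 3 or more coding gene midpoints for WT-dense, Irx5KO-dense and remaining bins, with 95% Wilson intervals. Bins without a coding gene make up 66.5% of WT-dense and 32.0% of Irx5KO-dense bins, and bins with 3 or more make up 7.71% and 22.7%.

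The receptor and gene-free shares varied with how many shared peaks a bin held. The share of tandem genes was higher in WT-dense bins at each level, but on few genes at the lower levels. With bins ranked by shared WT peaks and split into 5 equal parts, 11.3% of the richest part were WT-dense, against 2.48% in the poorest part. Of the 235 chemosensory genes in WT-dense bins 212 lay in the richest part, where they made up 42.2% of coding genes in WT-dense bins and 25.04% in other bins. In the 2 poorest parts receptor genes made up 0% in WT-dense bins, against 0.287% and 0.928% in other bins. Tandem genes made up 15.1%, 18.4%, 12%, 44.2% and 71.9% of coding genes in WT-dense bins from the poorest to the richest part, against 7.21%, 6.99%, 9.49%, 20.3% and 45.5% in other bins. In the same order the WT-dense bins held 53, 49, 50, 77 and 502 coding genes, so the shares of the poorer parts are imprecise. Gene-free bins were more frequent among WT-dense than among other bins of the poorest part, at 67.2% against 46.3%, but not in the richest part, at 56.0% against 61.1%. The order of the gene-free shares thus turned in the richest part, which held 541 of the 1168 WT-dense bins. Coding genes per bin turned there as well, at 0.928 in WT-dense and 0.832 in other bins, whereas in the poorest part they were 0.445 and 0.894.

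The regions themselves lay away from genes. Their midpoints fell inside a coding gene in 27.8% (27.1 to 28.5) of cases, against 36.7% (36.4 to 37.0) for the other low WT-only peaks and 54.3% (52.5 to 56.1) for low Irx5KO-only peaks in Irx5KO-dense bins. Shared WT peaks in the same WT-dense bins stood at 21.6%, lower still. Gene ends, within 1000 bp of either annotated end, held 2.99% (2.73 to 3.28) of the regions and 3.08% (2.98 to 3.20) of the other low WT-only peaks, a difference within counting error. The nearest coding gene end was over 200 kb away for 31.2% of the regions and 26.9% of the others.

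At gene level, 18 of the 731 coding genes in WT-dense bins, or 2.46%, carried a peak at a gene end in Irx5KO only and 83, or 11.4%, in WT only, beside 6.28% and 4.04% of all autosomal coding genes. These shares use the same contrast as the choice of bins and support nothing. A gene-end peak in both lists was present for 76.6% of them and for 76.1% of all coding genes. Receptor genes and other genes in WT-dense bins had WT-only gene-end peaks in 11.5% and 11.3% of cases.

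Long genes held many of the regions inside genes. Among the coding genes with the most were Rbfox1, an RNA splicing regulator gene of 1528 kb, and Grin2a, a glutamate receptor subunit gene of 428 kb, with 46 regions each. Per kb these are 0.0301 regions at Rbfox1 and 0.107 at Grin2a. Grin2a had its midpoint in an Irx5KO-dense bin and carried 44 Irx5KO-only and 73 WT-only peaks in all, so stretches of both kinds lay within 1 gene. Dnah7b and Dnah7a, dynein motor genes of cilia, had 45 and 41, with 19 and 23 Irx5KO-only and 53 WT-only peaks each, but with sharing within 500 bp neither kept a region. Dpp6, which encodes a potassium channel subunit, had 43 and the chromatin gene L3mbtl4 had 42. The calcium pump gene Atp2b2 had 38, the neurotrophin receptor gene Ntrk3 37 and Tafa5, which encodes a secreted protein, 36. Atp2b2, with 34 Irx5KO and 65 WT peaks, had the larger contrast of peak numbers beside Rbfox1 with 197 and 256. Atp2b2 and Ntrk3 each had a WT peak at 1 gene end or more and no Irx5KO peak at either end.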

How the data were processed

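ATAC-seq of sorted HFSC was deposited as 1 peak list per genotype, and per the labels each list belongs to both replicates. The submitters' processing notes name the build mm10 and list ChIPseeker 1.24.0, deepTools 3.4.2, Genrich 0.6, Bowtie2, cutadapt 2.9 and FastQC. The role of each tool, the peak threshold, the handling of multiply mapped reads, any shift for the Tn5 cut and read depth were not given in the sources used here. The deposited score per peak is the authors' whole number of at least 50, which serves here to order the peaks of 1 list, and the deposited signal, p and q columns were not used.

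Peaks were assigned to bins by midpoint. Coding genes came from a RefSeq table of GRCm38.p6, and 111 listed before the first peak of their chromosome, where peak coordinates do not reach, were left out. Tandem families were set by symbol patterns. The motif E-box and the others were searched in RefSeq promoters, without chromosome 18, and likeness of promoters was 1 minus edit distance over length. No protein sequences were used here, so the planned protein identity was not computed. Named bins were the 10 with the largest excess. Named genes were the 10 with the most regions inside or within 1000 bp, up to 4 leading genes of families with at least 3 genes in WT-dense bins, and those of the printed promoters and Irx5, and 1 result under this rule is not reported here. The bins, families and lists were chosen with earlier results of these data known. The V segments, the pseudogenes, the classes of bins and the Cphx comparison were added after values were seen. Overlap and binning were tested on simulated data. Alternatives changed overlap, score, list length, excess, bin start and size, width and gene models. Python 3.11.15, numpy 2.4.6, pandas 2.3.3, scipy 1.17.1 and matplotlib 3.10.9 were used.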

Additional observations from a re-analysis of the deposited data

How the results depend on the processing

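No paired analysis was possible because each genotype had 1 pooled peak list, and for the same reason leaving out each replicate and a replicate block were not run. Of 113 comparisons of a main value with an alternative, 46 moved by less than counting error or 1.5 times and 67 moved by more. The same counts were 34 and 16 for the named bins and 634 and 367 for the named genes. A change of sign was looked for only in the excess of the named bins, where 0 of the 50 comparisons reversed. Of 90 named genes with a region, 55 had none with sharing within 500 bp, 81 with the score threshold, 45 with scaling, 35 with 200 kb bins, 30 with an excess of 10, 24 with bins from position 50000, 19 with equal list lengths and 5 when sharing required 50% of a peak's width. The cause was not tested. Scaling the WT-only numbers, and all alternatives for V segments and for the share of receptor genes, were chosen after seeing the data.

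The number of WT-dense bins was 605 with peaks shared within 500 bp, 56 with scores at or above the 25th percentile, 510 and 2689 with an excess of at least 10 and 6, 254 with 200 kb bins and 325 with WT-only numbers scaled. In the same order the regions numbered 6499, 471, 7850, 28233, 7030 and 5382. With these 6 alternatives coding genes per WT-dense bin averaged 0.565, 0.786, 0.761, 0.568, 1.45 and 0.806. They averaged 0.680 when sharing required 50% of a peak's width, 0.703 with equal list lengths and 1.77 with all gene types. The values 1.45 and 1.77 cannot be set beside the 0.867 of other bins, which holds for 100 kb bins and coding genes. With 200 kb bins, 2.11% of bins were WT-dense and held 1.79% of coding genes. With all gene types, the 4.86% of bins that were WT-dense held 4.42% of genes.

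WT-dense bins without a coding gene made up 70.1% with sharing within 500 bp, 60.7% with the score threshold, 61.4% with an excess of 10, 48.03% with 200 kb bins and 59.7% with scaling, and 35.2% had no gene of any type. The 55.6% of all bins without a coding gene holds for 100 kb bins, so it is no background for 48.03% or 35.2%. Tandem genes made up 48.8% (500 bp), 61.9% (equal lengths), 66.5% and 45.7% (excess of 10 and 6), 51.7% (bins from position 50000), 61.2% (200 kb), 68.3% (scaled) and 20.5% (all gene types). The 20.5% has no background here either, since it counts neighbours of any gene type. Receptor genes made up 28.1% (500 bp), 27.3% (score), 36.3% (equal lengths), 36.1% and 26.4% (excess of 10 and 6) and 37.0% (scaled) of coding genes in WT-dense bins.

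The share of regions inside genes was 27.05% (50% of width), 35.7% (500 bp), 11.7% (score), 26.0% (equal lengths), 26.5% (excess of 10) and 26.4% (scaled). At gene ends it was 2.68% (500 bp), 3.42% (equal lengths), 3.58% and 2.59% (excess of 10 and 6) and 3.79% (scaled). V segments lay in WT-dense bins in 52.7% (50% of width), 6.42% (500 bp), 1.60% (score), 31.8% and 53.5% (excess of 10 and 6), 38.2% (bins from 50000) and 21.7% (scaled) of cases. For receptor genes the shares were 21.2% (50% of width), 6.35% (500 bp), 0.794% (score), 13.4% (equal lengths), 9.27% and 26.7% (excess of 10 and 6), 8.07% (200 kb) and 6.42% (scaled). Beside these, all coding genes lay there in 4.74% (50% of width), 1.66% (500 bp), 0.214% (score) and 2.72% (equal lengths) of cases. Their share was 1.89% and 7.43% (excess of 10 and 6), 3.79% (bins from 50000), 1.79% (200 kb) and 1.27% (scaled). The share of all bins that was WT-dense ranged over these settings from 0.233% to 11.2%. All 4 bins of the Duxbl block kept an excess of at least 13.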

Other observations

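On chromosome X, which entered no comparison, 5 of 1623 bins had an excess of at least 8 Irx5KO-only peaks and 111 had one of at least 8 WT-only peaks. On chromosome Y the numbers were 0 and 1 of 845 bins.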
